A study of Raphanus sativus with 12 samples.

Results

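WRKY transcription factors are a large plant family named after the amino acid motif at the start of their DNA-binding domain, which is followed by a zinc finger and binds the W-box motif in promoters. Members were the genes whose deposited description contains the word WRKY, and there were 114 of 30161 genes in the expression table. The descriptions number each radish gene after its closest Arabidopsis relative, and the 114 genes carried 58 different numbers. A copy is here called by that number and its gene identifier, for example WRKY40 Rsa10005813, and its role is given from Arabidopsis as background.

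Leaf blades of diploid radish (Raphanus sativus) of the material XHT were compared between vegetative plants, sampled 30 days after sowing, and reproductive plants, sampled at 120 days. No treatment was applied, and each library held the mixed leaves of 3 plants. Transcript levels came from 3 input RNA-seq libraries at each age and are in FPKM, a count of fragments scaled by transcript length and library size, so levels can be compared between genes. Changes in N6-methyladenosine (m6A), a methylated base in messenger RNA, came from the authors' comparison of immunoprecipitated libraries of the same ages, also 3 each, of which only the comparison and no value per library was used.

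WRKY factors are known above all as regulators of the response to pathogens and of leaf senescence, and a few affect flowering time. They fall into structural groups: group I has a pair of WRKY domains, group II (IIa to IIe) and group III have a single one with different zinc fingers. Many WRKY genes respond within minutes to wounding, microbial patterns or salicylic acid, and several WRKY proteins repress each other's genes. VQ proteins bind WRKY proteins, and MAP kinases phosphorylate some of them.

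FPKM summed to between 636795 and 694436 per library. Leaf markers were present in every library and higher at 120 days: the 6 small-chain Rubisco genes summed to 47194 to 61654 FPKM at 120 days and to 11511 to 12252 at 30 days. The 13 floral organ genes matched by description summed to 1.81 to 4.58 FPKM at 120 days and to 4.5 to 7.59 at 30 days. The 24 chlorophyll a-b binding genes summed to 23910 to 34098 FPKM at 120 days, and at 30 days to 802.96 in 30-day replicate 3, the library that stood apart from its group, against 3560 and 4534 in the other 30-day libraries. On the log2(FPKM + 1) scale the median of all tested genes lay at −0.45 for 120 over 30 days, so a WRKY gene at that value kept pace with the average gene, and after each library was centred on its median the median lay at −0.01. Whole leaves mix cell types, so a change in RNA per cell and a change in the share of cells that express a gene cannot be told apart.

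In total 76 WRKY genes had at least 1 FPKM in at least 3 of the 6 input libraries and were tested. Of these, 13 rose and 19 fell at 120 days (limma on log2(FPKM + 1), Benjamini-Hochberg adjusted over the 21435 genes tested, threshold 0.05). Rises thus made up 17.1% of the tested WRKY genes against 8.4% of all genes tested, and falls 25.0% against 37.6%. The median log2 fold of the tested WRKY genes was −0.21, and 44 of the 76 lay above the median of all genes. With every library centred on its median, 20 rose (26.3%, against 13.8% of all genes) and 7 fell (9.21%, against 10.2%), and the median became 0.23. Those 20 rises held all 13 of the uncentred calls, and the 7 falls were all among the 19. Quantile normalization also gave 20 rises and 7 falls (12.4% and 13.1% of all genes). With no centring, the 3 libraries of each age did not overlap in 17 genes that lay higher at 120 days (22.4%, against 11.6% of all genes tested) and in 22 that lay lower (28.9%, against 49.1%).

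The counts leaned on single libraries. Without 120-day replicate 1 there were 6 rises and 14 falls (5.36% and 23.5% of all genes), and without 120-day replicate 2 there were 4 and 12 (4.45% and 18.2%). Leaving out 120-day replicate 3 left 12 rises and 11 falls (5.02% and 17.7%). For the 30-day libraries, 11 rises and 14 falls stood without replicate 1 (6.97% and 24.7%), 12 and 22 without replicate 2 (8.8% and 41.4%), and 11 and 25 without replicate 3 (10.2% and 42.8%). A pseudocount of 0.1 gave 12 and 19 (7.96% and 37.6%), testing all genes gave 10 and 19 of 114 (6.29% and 25.2%), and a filter of 5 FPKM gave 11 and 12 of 44 (9.57% and 43.2%). Of the 13 rises 4 were called without each library in turn, as were 11 of the 19 falls.

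**Figure D1:**
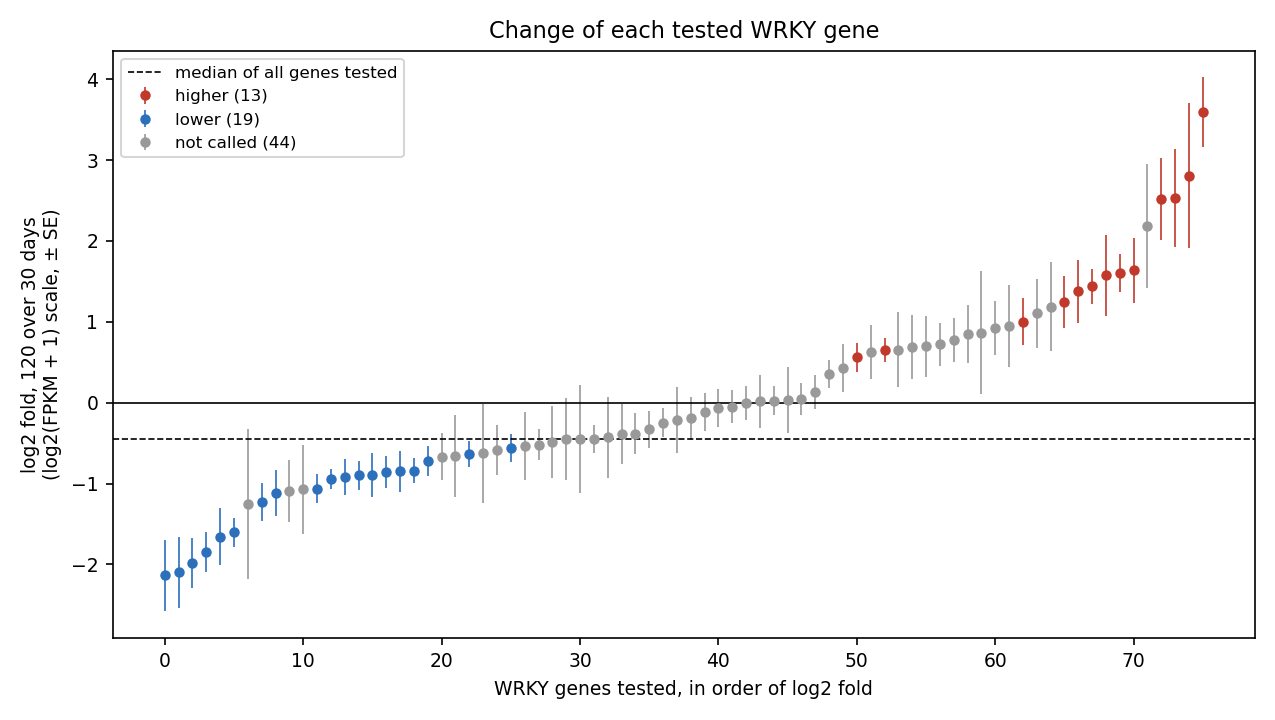
Log2 fold of 120 over 30 days (y axis, log2(FPKM + 1) scale, bars ± SE) for the 76 tested WRKY genes in rising order, coloured by call. The 13 called rises reach 3.59 and the 19 called falls reach −2.14, and the dashed line is the median of all tested genes at −0.45.

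By structural group, rises and falls can be read against the 8.4% and 37.6% of all genes tested that rose and fell, and medians against −0.45. Of the 14 tested genes of group III, 5 rose and 0 fell, their median log2 fold was 1.05 and 11 lay above 0. Of the 21 tested genes of group I, 3 rose, all of them copies of WRKY33, and 9 fell, with a median of −0.54. The 21 include 3 genes described as WRKY19, a number taken up below, and none of these was called. After centring, 9 of group III rose and 0 fell (median 1.49), while 3 of group I rose and 4 fell (median −0.10), against 13.8% and 10.2% of all genes and a median of −0.01. Group IId, the calmodulin-binding WRKY factors, had 13 tested genes, of which 3 rose and 4 fell (4 and 1 after centring). The smaller groups had 1 rise and 1 fall of 5 (IIa), 0 and 0 of 4 (IIb), 1 and 2 of 10 (IIc) and 0 and 2 of 5 (IIe). The difference between groups was not tested.

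**Figure D2:**
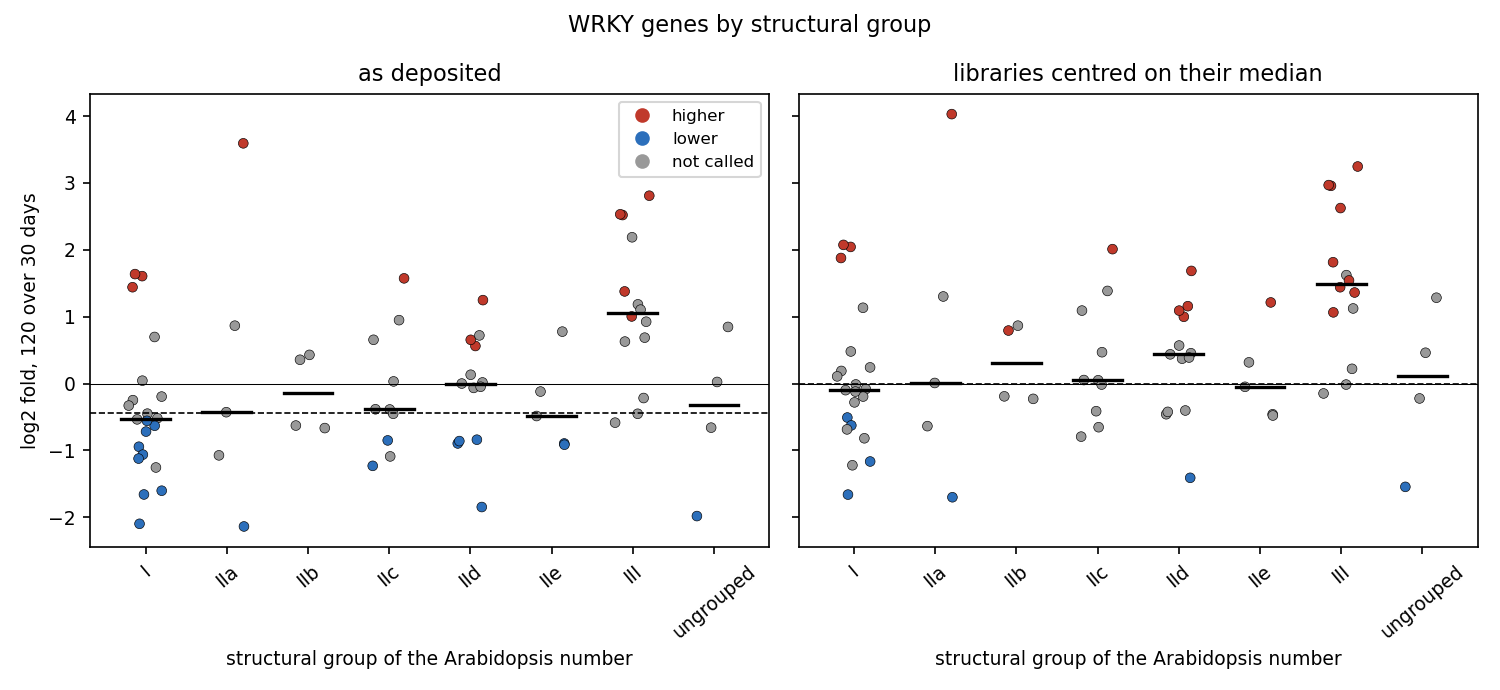
Log2 fold of 120 over 30 days for each tested WRKY gene by structural group, as deposited (left) and after centring each library on its median (right). Points are genes coloured by call, short bars are group medians, and the dashed line is the median of all tested genes. Group III has the highest group median in both panels (1.05 and 1.49).

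Group III holds the WRKY factors most closely tied to salicylic acid and senescence. Summed over its 19 matched genes, the group had 287, 201 and 123 FPKM in 120-day replicates 1, 2 and 3 and 112, 57.27 and 38.99 in 30-day replicates 1, 2 and 3. The sums did not overlap between the ages, although 120-day replicate 3 and 30-day replicate 1 came close.

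WRKY70 acts in Arabidopsis at the meeting point of salicylic acid and jasmonate signalling and, with WRKY54, restrains leaf senescence. It had 3 copies. Rsa10024314 (R05, 13591859 to 13593586) had 73.23, 61.19 and 37.88 FPKM at 120 days, against 17.26, 12.42 and 2.79 at 30 days. Every 120-day library lay above every 30-day library, and the mean rose from 10.8 ± 7.37 to 57.4 ± 17.97 (SD, n = 3 each, log2 fold 2.53, SE 0.60, limma adjusted p = 0.0172). With 120-day replicate 1 or 2 left out it no longer passed (adjusted p = 0.0592 and 0.0616), and its log2 fold was 1.85 without 30-day replicate 3.

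WRKY70 Rsa10005396 (R04, 49496463 to 49497946) had 46.37, 16.62 and 11.52 FPKM at 120 days and 9.78, 1.63 and 0.07 at 30 days. The ages did not overlap, but values within each age spread widely (log2 fold 2.81, SE 0.90, limma adjusted p = 0.0428). This call was lost with a pseudocount of 0.1, with no filter, and without any single library other than 30-day replicate 1. The log2 fold was 2.04 without 30-day replicate 3 and 3.70 without 30-day replicate 1. WRKY70 Rsa10030882 had 35.02, 23.2 and 8.68 against 12.17, 1.81 and 1.41 FPKM, with 120-day replicate 3 below 30-day replicate 1. It did not pass as deposited (log2 fold 2.19, limma adjusted p = 0.0565) and passed after centring (0.0462).

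WRKY54 Rsa10039107 (R01, 2833925 to 2835500) gave a steadier rise. It had 19.02, 20.36 and 14.22 FPKM at 120 days and 5.93, 0.62 and 2.07 at 30 days, with no overlap (log2 fold 2.52, SE 0.51, limma adjusted p = 0.0106), and it was called without each library in turn. Its copy Rsa10006740 had 29.35, 23.64 and 17.63 against 22.48, 9.36 and 14.51 FPKM, which overlapped (log2 fold 0.63, limma adjusted p = 0.161, and 0.0446 after centring). The third copy, Rsa10017790, stayed at or below 0.86 FPKM in every library.

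WRKY53, a promoter of senescence in Arabidopsis, did not pass. Rsa10014337 had 33.15, 25.56 and 15.98 FPKM at 120 days and 13.72, 15.45 and 5.38 at 30 days. Its ages did not overlap, though 120-day replicate 3 lay only just above 30-day replicate 2 (log2 fold 1.11, limma adjusted p = 0.074, and 0.0424 after centring). The less abundant copy Rsa10036597 had 5.9, 3.5 and 2.49 against 2.74, 2.97 and 0.75 FPKM and overlapped (log2 fold 0.69, limma adjusted p = 0.194).

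The other group III genes were lower in level. WRKY41 Rsa10012413, a gene of defence and seed dormancy, rose to 11.55, 11.24 and 5.1 from 3.02, 4.33 and 1.49 FPKM (log2 fold 1.38, limma adjusted p = 0.0295). WRKY30 Rsa10033703, an early stress gene, rose to 7.31, 6.46 and 3.37 from 3.05, 1.93 and 1.83 (log2 fold 1.004, limma adjusted p = 0.0319). Both lost their calls without 120-day replicate 1 (adjusted p = 0.093 and 0.0986) or 2 (0.1 and 0.108), the first also without 30-day replicate 1 (0.0717), and the second without 30-day replicate 2 or 3 (0.0658 and 0.0536) and with no filter (0.0521). The copy WRKY30 Rsa10018314 had 3.3, 1.13 and 1.19 against 0.68, 0.6 and 0.09 FPKM and passed after centring but not as deposited (log2 fold 0.93, limma adjusted p = 0.0627, and 0.0279 centred).

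WRKY46, which acts with WRKY53 and WRKY70 in basal resistance, had copies that lay on opposite sides of 0. Rsa10026218 had 9.64, 3.59 and 1.82 FPKM at 120 days and 1.48, 2.4 and 0.39 at 30 days (log2 fold 1.18, limma adjusted p = 0.118), and Rsa10009826 had 1.5, 0.81 and 0.4 against 2.95, 1.35 and 1.3 (log2 fold −0.58, limma adjusted p = 0.163). Both overlapped between the ages. Neither copy of WRKY62, a repressor of basal defence, was called. Its close relative WRKY38 Rsa10013248 lay below the filter and was seen mainly in the first library of each age, with 3.31, 0.44 and 0.13 FPKM at 120 days and 7.8, 0.17 and 0.2 at 30 days.

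WRKY33 is needed in Arabidopsis for resistance to necrotrophic fungi and for the synthesis of the antimicrobial compound camalexin. All 3 of its copies rose, and they did so by nearly the same amount. Rsa10011587 (R03, 11281935 to 11285886) had 67.5, 61.76 and 40.63 FPKM at 120 days and 19.24, 22.05 and 18.16 at 30 days (log2 fold 1.44, SE 0.22, limma adjusted p = 0.00512). Rsa10020317 (R04, 39647987 to 39649789) had 57.98, 58.97 and 33.42 against 15.74, 14.79 and 15.3 (log2 fold 1.61, SE 0.24, limma adjusted p = 0.00478). Both were called without each library in turn, and in both 120-day replicate 3 was the lowest library of its age.

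The third copy, Rsa10038963 (R01, 3750635 to 3752662), was less abundant, with 29.98, 26.29 and 12.06 FPKM at 120 days and 6.38, 3.96 and 9.02 at 30 days (log2 fold 1.64, SE 0.40, limma adjusted p = 0.0191). No 120-day library overlapped a 30-day library. It no longer passed when 120-day replicate 1 (adjusted p = 0.0627) or 2 (0.0715) or 30-day replicate 1 (0.0549) was left out.

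**Figure D3:**
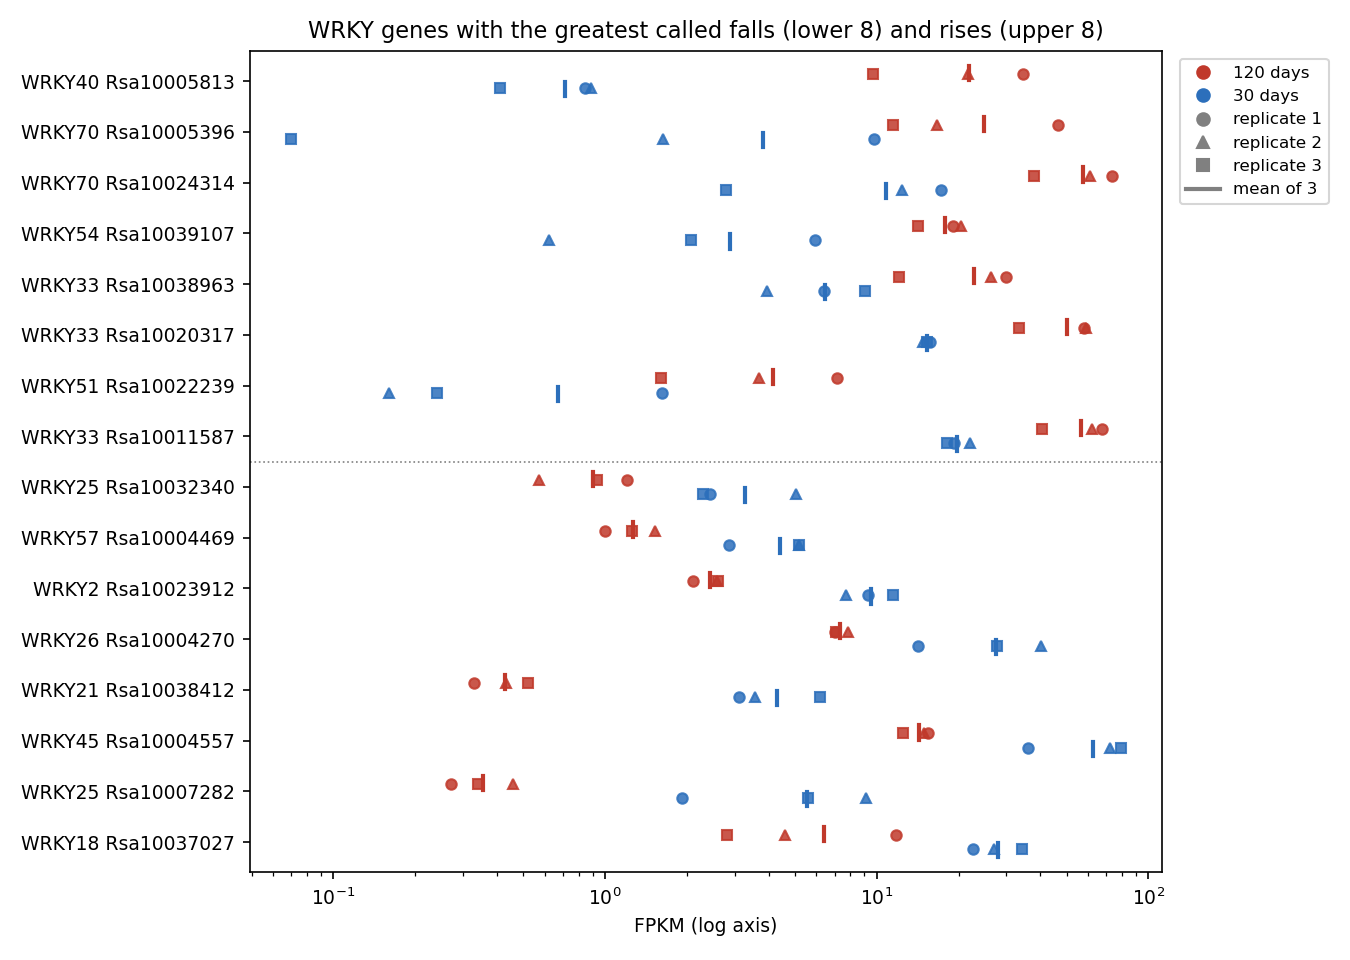
FPKM (log axis) in each input library of the 8 WRKY genes with the greatest called rises (upper) and the 8 with the greatest called falls (lower). Red marks 120 days, blue 30 days, the symbol gives the replicate and the short bar the mean of 3. In 7 of the 8 upper genes the ages do not overlap, the exception being WRKY51, and in all 8 lower genes they do not. The genes were picked for their called changes in these same libraries. Over all genes tested, 11.6% lay higher and 49.1% lower at 120 days with no overlap.

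The greatest change of any tested WRKY gene was in group IIa. WRKY40 Rsa10005813 (R02, 40024889 to 40027856), in Arabidopsis a repressor of defence genes that is itself quickly induced by pathogens, had 34.41, 21.71 and 9.71 FPKM at 120 days and 0.84, 0.89 and 0.41 at 30 days. The lowest 120-day library was thus far above the highest 30-day library, and the ratio of the means was 30.8 (log2 fold 3.59, SE 0.43, limma adjusted p = 0.00318). This rise was called without each library in turn. A second copy, Rsa10014887, had 26.37, 12.96 and 2.84 against 5.89, 9.41 and 2.38 FPKM and overlapped (log2 fold 0.87, limma adjusted p = 0.377). The third, Rsa10029794, ranged from 0.59 to 2.23 FPKM and was not tested.

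WRKY18 is the partner of WRKY40 in group IIa and acts partly redundantly with it. Its most changed copy moved the other way: Rsa10037027 (R04, 2130098 to 2131266) had 11.77, 4.61 and 2.82 FPKM at 120 days and 22.6, 27.01 and 34.19 at 30 days. The ages did not overlap (log2 fold −2.14, SE 0.44, limma adjusted p = 0.0115, and 0.0335 after centring), and the fall was called without each library in turn. The copy Rsa10019142 had 40.63, 16.47 and 9.33 against 31.82, 19.47 and 26.22 FPKM, so its 120-day libraries lay on both sides of the 30-day ones (log2 fold −0.43, limma adjusted p = 0.504, and a log2 fold of 0.01 after centring). The last copy, Rsa10010383, had 0.82 ± 0.918 against 3.10 ± 2.73 FPKM (log2 fold −1.07, limma adjusted p = 0.148). No member was described as WRKY60, the other gene of this group.

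Group I held 9 of the 19 falls among its 21 tested genes, where 37.6% of all genes tested fell. Its median log2 fold of −0.54 lay near the −0.45 of all genes tested. WRKY25 and WRKY26 act with WRKY33 in heat tolerance in Arabidopsis, and unlike WRKY33 their radish copies had negative log2 folds. WRKY25 Rsa10007282 (R01, 7070259 to 7071717) had 0.27, 0.46 and 0.34 FPKM at 120 days and 1.92, 9.14 and 5.57 at 30 days, with 30-day replicate 1 well below the others but no overlap (log2 fold −2.10, SE 0.44, limma adjusted p = 0.012, and 0.0485 after centring). WRKY25 Rsa10032340 fell to 0.900 ± 0.316 from 3.26 ± 1.55 FPKM (log2 fold −1.12, limma adjusted p = 0.0212), a call lost after centring (0.148) and without 120-day replicate 2 or 3 (0.0786 and 0.0684). The third WRKY25 copy, Rsa10016516, had 17.07, 38.11 and 1.73 FPKM at 30 days and 6.05, 3.61 and 3.37 at 120 days, so 30-day replicate 3 was the lowest of the 6 libraries and the fall did not pass (log2 fold −1.25, limma adjusted p = 0.293). WRKY26 Rsa10004270 (R02, 13447530 to 13449048) had 7.02, 7.86 and 7.05 against 14.22, 40.19 and 27.69 FPKM. Its ages did not overlap (log2 fold −1.66, limma adjusted p = 0.0125), and its adjusted p was 0.0639 after centring.

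WRKY2, which in Arabidopsis acts in pollen, embryo and seed germination, had a called and an uncalled copy. Rsa10023912 (R09, 26781829 to 26785229) had 2.1, 2.59 and 2.6 FPKM at 120 days and 9.29, 7.7 and 11.52 at 30 days (log2 fold −1.60, SE 0.18, limma adjusted p = 0.00282, and 0.00839 after centring). Values within each age lay close together, and the fall was called under every alternative that kept the gene. Rsa10032651 had 7.69 ± 0.836 against 9.40 ± 1.83 FPKM, with overlap (log2 fold −0.25, limma adjusted p = 0.29), and its log2 fold turned to 0.19 after centring.

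WRKY3 and WRKY4, which support resistance to necrotrophic fungi, had the same pattern of a called and an uncalled copy. WRKY3 Rsa10020712 fell to 10.2 ± 0.327 from 20.7 ± 1.495 FPKM (log2 fold −0.94, limma adjusted p = 0.00375) and WRKY4 Rsa10033235 to 6.46 ± 1.23 from 14.5 ± 2.06 (log2 fold −1.06, limma adjusted p = 0.00682). Both also passed after centring (0.0256 and 0.0404). Their copies Rsa10015373 and Rsa10037877 had log2 folds of −0.19 and −0.52 (adjusted p = 0.567 and 0.0684). The WRKY20 copies Rsa10021946 and Rsa10026791 and WRKY1 Rsa10041663 fell by log2 folds of −0.63, −0.56 and −0.72 (limma adjusted p = 0.0218, 0.0388 and 0.0221). None of these 3 passed after centring (0.37, 0.615 and 0.265) or when any 120-day library or 30-day replicate 1 was left out (adjusted p up to 0.121). Rsa10026791 also failed without 30-day replicate 3 (0.0553) and with no filter (0.0566).

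Of the remaining group I genes, WRKY44 Rsa10011673, whose Arabidopsis relative TTG2 controls trichomes and seed coat, had 1.56 ± 0.537 against 3.003 ± 1.81 FPKM (log2 fold −0.54, limma adjusted p = 0.32). WRKY58 Rsa10043198 had a log2 fold of 0.70 (adjusted p = 0.171). The descriptions of 8 members name WRKY19 or WRKY16, numbers that in Arabidopsis belong to immune receptors fused to a WRKY domain. Of these 8, 7 carried a gene ontology term for defence response or ADP binding and 6 carried none for DNA-binding transcription factors, while all the other 106 members carried at least 1 of the latter. Tested members of these numbers, 6 in all, had log2 folds of −0.66 (Rsa10013997) to 0.85 (Rsa10013965) and none was called, so the counts of 13 and 19 do not rest on them.

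In group IId, WRKY7 and WRKY17 rose, while copies of WRKY21, WRKY39 and WRKY74 fell. WRKY7 Rsa10036626 had 16.56, 21.79 and 24.15 FPKM at 120 days and 9.84, 11.22 and 4.67 at 30 days (log2 fold 1.25, limma adjusted p = 0.0217, but 0.0752 with 120-day replicate 2 left out and 0.0807 with replicate 3 left out). Of the 13 rises it was the 1 in which 120-day replicate 3 was the highest 120-day library. WRKY7 Rsa10021741 rose to 14.5 ± 0.989 from 9.62 ± 2.11 (log2 fold 0.56, limma adjusted p = 0.0429), a call lost with no filter (0.0567) and without any single library other than 30-day replicate 3 (up to 0.135). WRKY17 Rsa10007408, a damper of basal resistance, rose to 16.2 from 9.91 FPKM (log2 fold 0.65, limma adjusted p = 0.014, and 0.0662 without 120-day replicate 2).

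No copy of WRKY11, the close relative of WRKY17, was called. WRKY21 Rsa10038412 (R01, 6899087 to 6900867) fell to 0.33, 0.43 and 0.52 from 3.1, 3.55 and 6.2 FPKM (log2 fold −1.85, SE 0.24, limma adjusted p = 0.00378) and was called under every alternative that kept it. WRKY21 Rsa10032319 fell by a log2 fold of −0.90 (adjusted p = 0.0363), a call lost after centring (0.237), with no filter (0.052) and when any 120-day library or 30-day replicate 1 was left out (0.0904 to 0.106). The third and most abundant WRKY21 copy, Rsa10016538, lay on the other side of 0, with 24.59, 32.43 and 28.15 against 18.09, 22.73 and 11.3 FPKM. Its ages did not overlap, and it passed after centring but not as deposited (log2 fold 0.72, limma adjusted p = 0.0627, and 0.0297 centred). WRKY39 Rsa10043107 and WRKY74 Rsa10027365 fell by log2 folds of −0.84 and −0.86 (adjusted p = 0.00826 and 0.0151), neither after centring (0.114 and 0.139), the second also not without 120-day replicate 1 or 3 (0.0558 and 0.0596).

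In group IIc, WRKY51 Rsa10022239, which with WRKY50 represses jasmonate responses in Arabidopsis, had 7.12, 3.69 and 1.61 FPKM at 120 days and 1.62, 0.16 and 0.24 at 30 days. It was called (log2 fold 1.57, SE 0.50, limma adjusted p = 0.0412) although 120-day replicate 3 lay just below 30-day replicate 1. The call was lost with no filter (0.0603), without 120-day replicate 1 or 2 (0.109 and 0.108) and without 30-day replicate 2 or 3 (0.0925 and 0.0725). The copy WRKY51 Rsa10016152 had 2.62, 2.64 and 2.27 against 7.97, 0.52 and 7.08 (log2 fold −0.45, adjusted p = 0.597), a wide spread at 30 days. WRKY50 Rsa10018170 had a log2 fold of 0.95 (adjusted p = 0.161).

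WRKY57, a drought and jasmonate factor, fell in its copy Rsa10004469 to 1.26 ± 0.265 from 4.41 ± 1.34 FPKM (log2 fold −1.23, limma adjusted p = 0.00928, and 0.0723 after centring), and its copy Rsa10009790 had a log2 fold of −1.09 (adjusted p = 0.0565). WRKY59 Rsa10028956 fell by a log2 fold of −0.85 (adjusted p = 0.0349, 0.304 after centring, and 0.0558 to 0.114 when any 120-day library or 30-day replicate 1 was left out). In group IIe, both WRKY69 copies fell, with log2 folds of −0.91 (Rsa10024163, adjusted p = 0.0183) and −0.90 (Rsa10002732, 0.0103), neither after centring (0.137 and 0.0977), the first also not without 120-day replicate 2 or 3 (0.0724 and 0.0728). WRKY22-like Rsa10025645, a target of the MAP kinase cascade of pattern-triggered immunity, had 5.11, 3.31 and 2.2 against 2.07, 1.48 and 1.2 FPKM. Its ages did not overlap (log2 fold 0.78, adjusted p = 0.0577, and 0.0179 after centring). Both copies described as WRKY29, which acts beside it, stayed at or below 0.34 FPKM.

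The most abundant faller was WRKY45 Rsa10004557 (R05, 40580300 to 40581007), a gene of phosphate uptake and senescence in Arabidopsis that was left ungrouped. It had 15.45, 14.94 and 12.48 FPKM at 120 days and 36.12, 72.25 and 79.01 at 30 days, with no overlap (log2 fold −1.98, SE 0.31, limma adjusted p = 0.00547, and 0.0206 after centring). In group IIb no gene was called. WRKY6 Rsa10033564, which acts in senescence and phosphate transport, had 7.11 ± 2.83 against 4.77 ± 0.694 FPKM (log2 fold 0.43, adjusted p = 0.267). Its relative WRKY42 Rsa10003486 was more abundant, with 31.05, 27.38 and 25.53 against 20.28, 26.22 and 18.86 (log2 fold 0.36, adjusted p = 0.126, and 0.025 after centring).

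The WRKY genes known for flowering time in Arabidopsis were hardly detected in these leaves, and none of them passed the filter of the main fit. WRKY12, which promotes flowering, had 1.34, 0.25 and 0.1 FPKM at 120 days and 0.98, 0 and 0.32 at 30 days (Rsa10039370), and its copy Rsa10006252 at most 1.18. WRKY13, which delays it, had 1.33, 0.52 and 0.87 against 1.13, 0.27 and 0.43 (Rsa10026269) and at most 0.65 in the copy Rsa10027047. WRKY71, which promotes flowering, had 0, 0.23 and 0 against 1.33, 0.76 and 0.91 (Rsa10039741), so its ages did not overlap at these low levels. The authors' deposited table called it lower (log2 fold −3.69, q-value 0.05). WRKY75, which promotes flowering and senescence, had at most 1.5 FPKM in either copy, reached at 30 days, and Rsa10002166 was listed at 0 in all 3 of the 120-day libraries. The depth behind such values is unknown.

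In all 38 members lay below the filter, and 4 of them were listed at 0 in each 120-day library. Tested members had means of 1.04 to 38.4 FPKM over the 6 libraries, with a median of 6.76, against 10.1 for all genes tested. The highest value of an untested member was the 7.8 FPKM of WRKY38 in 30-day replicate 1. WRKY8 Rsa10017235 followed, with 6.83 FPKM in 30-day replicate 3, 1.99 and 0.33 in the other 30-day libraries, and 0.08 to 0.3 at 120 days.

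Copies that share a number often differed in size of change but, as deposited, were never called in opposite directions. Of the 24 numbers with at least 2 tested copies, 2 had all copies rising (WRKY7 and WRKY33), 2 all falling (WRKY20 and WRKY69), and 7 no copy called. In the other 13 some copies were called and others not. After centring, WRKY21 had copies called in opposite directions. Rsa10016538 was called higher (log2 fold 1.16, limma adjusted p = 0.0297) and Rsa10038412 lower (−1.41, 0.0131). The range of log2 folds among copies had a median of 0.72 and was widest in WRKY40 (2.73), WRKY21 (2.57), WRKY51 (2.03) and WRKY54 (1.89). It was narrowest in WRKY69 (0.02), WRKY20 (0.07), WRKY30 (0.08) and WRKY11 (0.08). No source used here says how the reads of near-identical copies were assigned, so differences and likenesses between copies are uncertain.

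**Figure D4:**
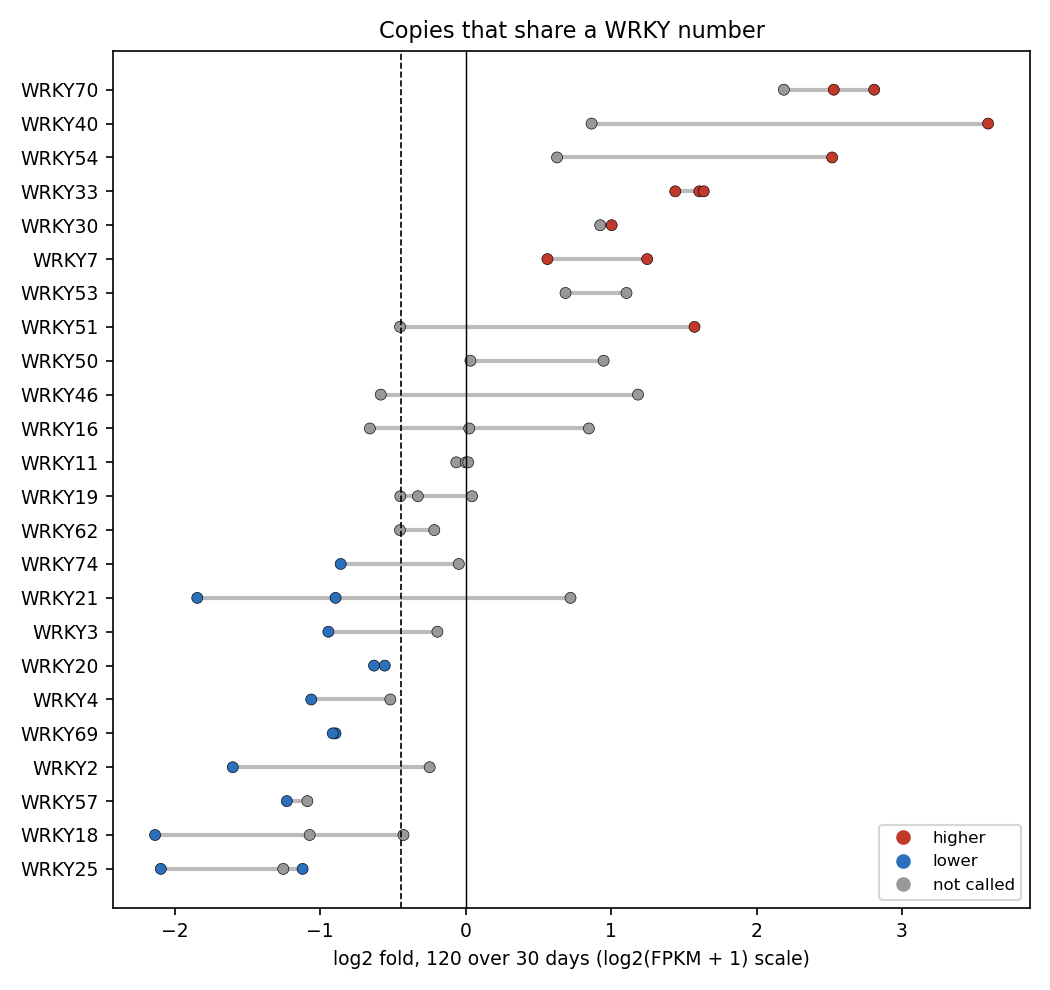
Log2 folds of 120 over 30 days for the 24 WRKY numbers with at least 2 tested copies. Each point is a copy coloured by its call, the grey line spans the copies, the solid line is 0 and the dashed line is the median of all tested genes at −0.45. The copies of WRKY33 lie together at 1.44 to 1.64, while those of WRKY21 span 0.

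The 120-day libraries differed among themselves in a shared direction. Of the 13 rises, 12 were lowest of their age in 120-day replicate 3 and 8 were highest in replicate 1, against 32.9% and 32.8% of all 1801 genes that rose. Among the 14 tested group III genes, 13 were highest in 120-day replicate 1 and 12 lowest in replicate 3, against 46.3% and 43.1% of all genes tested. The WRKY genes together took 0.148%, 0.119% and 0.0881% of the FPKM in 120-day replicates 1, 2 and 3 and 0.120%, 0.119% and 0.109% in 30-day replicates 1, 2 and 3. The summed share at 120 days thus lay on both sides of that at 30 days.

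Genes that respond quickly to stress, matched as ZAT10, ZAT12 and a set of ethylene response factors, mostly rose. Of 12 tested, 8 rose and 0 fell (8.4% and 37.6% of all genes), with the same numbers after centring, and the median log2 fold was 2.11. They summed to 857, 709 and 551 FPKM in 120-day replicates 1, 2 and 3 and to 95.3, 118 and 95.3 at 30 days, so the order of the 120-day libraries was that of the WRKY group III sums. The summed salicylic acid, defence output, VQ and MAP kinase lists described below had that same 120-day order. It was not particular to these lists, as the median log2(FPKM + 1) of all genes tested also had it (3.20, 3.15 and 3.08). So did the sums of all other WRKY groups except IId (149, 162 and 135), while FPKM summed over all genes did not (680064, 694156 and 694436). At 30 days the order differed, with the highest sum in replicate 2 for the quick stress genes and in replicate 1 in group III. ERF104-like Rsa10019647 had 171.14, 156.06 and 117.81 FPKM at 120 days and 13.53, 12.98 and 8.26 at 30 days (log2 fold 3.58, limma adjusted p = 0.00137), and ERF104 Rsa10017954 had 101.2, 91.54 and 71.96 against 15.49, 15.4 and 9.43 (log2 fold 2.64, adjusted p = 0.00188). The part of such a response in the WRKY result was not tested.

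Among 26 tested genes of salicylic acid synthesis and signalling, 6 rose and 5 fell (9 and 1 after centring), with a median log2 fold of 0.18. Over all genes tested 8.4% rose and 37.6% fell, or 13.8% and 10.2% after centring, and the median was −0.45. Isochorismate synthase 1-like Rsa10030617, the enzyme at the start of the main route to salicylic acid, rose to 10.9 ± 0.728 from 5.34 ± 0.911 FPKM (log2 fold 0.92, limma adjusted p = 0.00678). NIM1-INTERACTING 3 Rsa10041238, a partner of the salicylic acid receptor NPR1, had 4.65, 2.02 and 3.73 FPKM at 120 days and 0, 0.11 and 0 at 30 days (log2 fold 2.06, adjusted p = 0.00341). The 5 falls included NPR1 Rsa10026797 (log2 fold −0.81, limma adjusted p = 0.0158) and NIM1-INTERACTING 1-like Rsa10005734 (−1.19, 0.0316). Neither passed after centring (0.208 and 0.126). A further NPR1 gene below the filter, Rsa10033376, had 0.99, 1.6 and 0.92 against 0.42, 0.29 and 0.23 FPKM. The match took in SUPPRESSOR OF npr1-1, CONSTITUTIVE 1 genes, which encode immune receptors. Of these, Rsa10021345 and Rsa10014931 were among the 5 falls (log2 folds −1.29 and −1.35), and Rsa10021345 was the 1 fall after centring (limma adjusted p = 0.0373). Rsa10027302, also of that description, was among the 9 rises after centring (0.0254). Of 6 tested defence output genes, 2 rose and 1 fell (2 and 0 after centring), against the same shares of all genes. Their median log2 fold was −0.34, and 3 lay above 0. Pathogenesis-related protein 1-like Rsa10041723, a marker of salicylic acid responses, had 61.67, 18.9 and 9.63 FPKM at 120 days and 3.21, 0.2 and 0.05 at 30 days (log2 fold 3.76, adjusted p = 0.0118, and log2 folds of 3.06 without 120-day replicate 1 and 4.40 without 30-day replicate 1). The other tested gene of that description, Rsa10037115, had 26.84, 4.23 and 2.06 against 41.69, 8 and 10.41 FPKM. It overlapped and was not called (log2 fold −1.10, limma adjusted p = 0.364). Pathogenesis-related protein 5-like Rsa10019739 fell to 6.30 ± 0.318 from 12.02 ± 2.53 (log2 fold −0.82, adjusted p = 0.0123), a call lost after centring (0.144) and without 120-day replicate 2 or 3 (0.0543 and 0.0538). Another gene of that description, Rsa10038278, rose to 6.6, 4.01 and 2.21 from 1.37, 1.47 and 0.05 FPKM, with no overlap. Its log2 fold was 1.44 (limma adjusted p = 0.0393, and 0.0262 after centring), and it was called in 2 of the 6 fits that left out a library. The last tested gene of that description, Rsa10038280, overlapped and was not called (log2 fold 0.14, limma adjusted p = 0.913). The 1 gene matched as a senescence output, the cysteine protease SAG12, was listed at 0 in all 3 of the 120-day libraries and had 0.22, 5.09 and 1.96 FPKM at 30 days.

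Of 19 tested VQ proteins and their like, the partners of WRKY factors, 5 rose and 7 fell (7 and 2 after centring), with a median log2 fold of 0.13. The share that fell was close to the 37.6% of all genes, of which 8.4% rose (13.8% rose and 10.2% fell after centring). Sigma factor binding protein 1 Rsa10024295, which in Arabidopsis binds WRKY33, rose to 204.39, 152.95 and 123.35 from 75.43, 38.23 and 61.96 FPKM (log2 fold 1.46, limma adjusted p = 0.012). VQ motif-containing protein 22 Rsa10006053 fell to 0.343 ± 0.0603 from 10.1 ± 2.06 FPKM (log2 fold −3.04, adjusted p = 0.00106). Of 10 tested MAP kinases and MAP kinase kinases of the defence cascade, 0 rose and 3 fell (8.4% and 37.6% of all genes), but 3 rose and 1 fell after centring (13.8% and 10.2%). MAP kinase kinase 4-like Rsa10027542 fell to 6.06 ± 1.57 from 23.8 ± 10.996 (log2 fold −1.75, adjusted p = 0.00952) and MAP kinase kinase 5 Rsa10042405 to 11.97 ± 0.977 from 24.2 ± 3.46 (log2 fold −0.95, adjusted p = 0.006, and 0.0506 after centring). MAP kinase 3 Rsa10022949 had 198.03, 192.18 and 126.52 against 122.19, 103.66 and 108.15 FPKM, with no overlap (log2 fold 0.60, limma adjusted p = 0.0625, and 0.0149 after centring). The other rises after centring were MAP kinase kinase 9 Rsa10023456 and 9-like Rsa10030546 (limma adjusted p = 0.0402 and 0.0475).

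The authors' list of differential m6A peaks held 10 peaks in 10 WRKY genes, all higher at 120 days, as were 96.8% of the 5476 peaks in the list. A peak was listed in 8.77% of the 114 WRKY genes and 17.2% of all genes, and in 13.2% and 23.3% of those tested. By annotation 7 were exonic, 2 lay in a 3′ UTR (34.5% of all peaks) and 1 in a 5′ UTR (2.5%), and 3449 of all 5476 peaks were exonic. Structural group I had 6 of the 10 among 21 tested genes, IId had 2 among 13, IIe 1 among 5 and the ungrouped genes 1 among 4. Groups IIa, IIb, IIc and III had 0 among 5, 4, 10 and 14 tested genes. Median levels of the tested genes were 10.5 (I), 12.1 (IId), 2.585 (IIe) and 18.97 FPKM (ungrouped). In the groups with no peak they were 11.3 (IIa), 6.66 (IIb), 2.48 (IIc) and 5.06 FPKM (III). Differences between the groups in peaks were not tested. The authors' log2 folds ranged from 0.426 to 1.33 with a median of 0.65, and the middle of all peaks in the list was 0.504. No source used here says whether these folds take account of transcript level or which genome build was used, and positions are those of the authors' file, counted from 1.

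Of the 10 genes with a peak, 6 fell in expression (56.1% of all tested genes with a peak did), 2 rose (4.32%) and 2 did not pass. The falling genes were WRKY2, WRKY3, WRKY4, WRKY20, WRKY39 and WRKY69, and in 5 of them the peak ended at the 3′ end of the annotated gene, as did 69.96% of all peaks in the list. The peak with the smallest authors' FDR, 2e-11, lay in WRKY3 Rsa10020712 (R01, 35886792 to 35887695, exonic), with a log2 fold of 0.426 in the authors' deposited table. That in WRKY20 Rsa10021946 (R02, 5171965 to 5172349, annotated as 3′ UTR) had 0.702 and an FDR of 2.34e-09, and that in WRKY2 Rsa10023912 (R09, 26784960 to 26785229, 3′ UTR) had 0.642 and an FDR of 0.000759. In WRKY4 Rsa10033235 the exonic peak (R01, 16778138 to 16778531) had 0.64 and an FDR of 0.000126.

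WRKY7 and WRKY33 were the genes that rose in both expression and m6A. The exonic peak of WRKY7 Rsa10021741 (R02, 6182816 to 6182962) had a log2 fold of 1.11 and an FDR of 5.89e-08 in the authors' deposited table, and lay 204 bases from the gene's 5′ end. In WRKY33 Rsa10011587 the peak (R03, 11282384 to 11282564) was annotated as 5′ UTR and lay 449 bases from the 5′ end, with a log2 fold of 0.57 and an FDR of 0.00741. The other WRKY33 copies had no peak in the list. The greatest fold, 1.33, lay in the weakly expressed WRKY44 Rsa10011673 (R03, 10606328 to 10606477, exonic) and had an FDR of 0.0355, as did the peak of WRKY69 Rsa10002732.

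**Figure D5:**
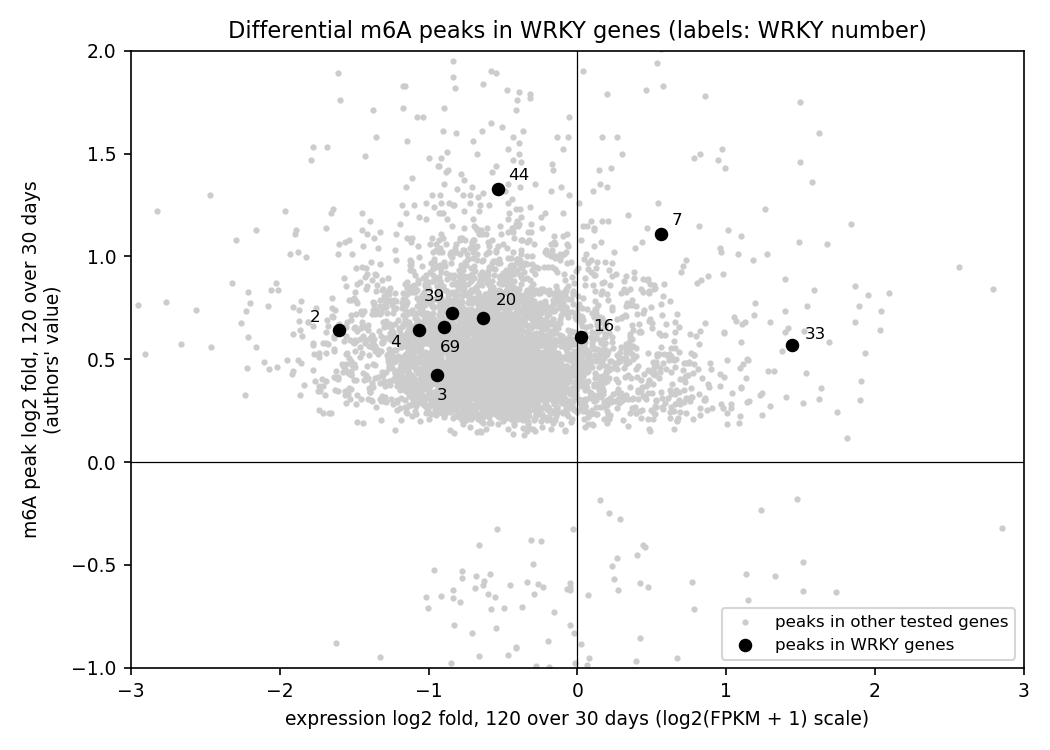
The authors' m6A log2 fold of each differential peak (y axis) against the expression log2 fold of its gene (x axis, log2(FPKM + 1) scale), both 120 over 30 days. Black points are the 10 peaks in WRKY genes, labelled with the WRKY number, and grey points the peaks in other tested genes, of which 124 of 5253 lie outside the axes. All 10 black points lie above 0 on the y axis, as do most grey points.

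The authors' deposited table called 20 WRKY genes higher (17.5%, against 6.45% of all genes in the table) and 13 lower (11.4%, against 11.5%). With a q-value of at most 0.05 these were 18 and 9 (5.93% and 7.46% of all genes). Of the 20, 19 were tested here and 11 were called higher, and of the 13 lower genes 10 were tested and 9 were called lower. Among the genes the authors called and limma did not were WRKY53 Rsa10014337, WRKY46 Rsa10026218, WRKY22-like Rsa10025645, WRKY70 Rsa10030882 and WRKY40 Rsa10014887, all higher in the authors' deposited table. The reverse held for 10 falls, which included WRKY3 Rsa10020712 and WRKY39 Rsa10043107, and for 2 rises, WRKY7 Rsa10021741 and WRKY17 Rsa10007408.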

How the data were processed

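The submitters' processing notes name fastp, FastQC, HISAT2, StringTie, HOMER and edgeR, with no versions or roles. The authors deposited FPKM for the 6 input libraries with 2 decimals, and for each gene a log2 fold, a p-value and a q-value, per the file headers. For each differential m6A peak they deposited a log2 fold, a p-value and an FDR. No source used here gives the genome build or the peak caller. Read depth behind FPKM is unknown, so no counting interval was given, and strand handling is not stated.

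Here, log2(FPKM + 1) of all genes with at least 1 FPKM in at least 3 libraries was tested with limma 3.58.1 (R 4.3.3, eBayes with trend), 2-sided and Benjamini-Hochberg adjusted over all genes tested. Replicates are libraries of mixed leaves, and p-values measure the spread between them. The log2 fold understates the change of low genes. Peaks were only described. An exact test of 3 against 3 libraries cannot go below p = 0.1 and was not used. Structural groups are those of the Arabidopsis numbers, but the list of numbers used held neither WRKY16 nor WRKY45, which therefore count in no group. The 114 WRKY genes and all lists were chosen with earlier results of these data known. The naming rule took the 8 greatest called rises and falls, all genes with a peak, set Arabidopsis numbers, and the 2 smallest p of each linked list. Members named beyond it were chosen after their values were seen. No gene matched the RefSeq gene table by identifier, and no sequence is shown. Alternatives were other pseudocounts, filters and scalings, a replicate block, leaving out each library, stricter peak and q-value thresholds and, added after seeing the data, leaving out WRKY16 and WRKY19.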

Additional observations from a re-analysis of the deposited data

How the results depend on the processing

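Median centring and quantile normalization each gave 20 WRKY rises and 7 falls against 13 and 19 as deposited, and a filter of at least 5 FPKM gave 12 falls among the 44 members it kept. Leaving out 1 library gave 4 to 12 rises and 11 to 25 falls. The median log2 fold of the WRKY genes was −0.21 as deposited, turned to 0.0207 with the filter of 5 FPKM, 0.23 after median centring and 0.17 after quantile normalization, and lay between −0.27 and −0.08 without 1 library. Of the 10 peaks 2 had an absolute log2 fold of at least 1. Under all alternatives 0 genes were called in the direction opposite to their call as deposited. Of the 76 tested members 34 lay above 0 as deposited and 44 after centring. Among the members named here, uncalled ones that changed sign were WRKY16 Rsa10026916 (0.02 as deposited, −0.0499 without 120-day replicate 1, −0.1346 without 30-day replicate 2 and up to 0.1345 with another library left out), WRKY18 Rsa10019142 (0.009 after centring, and −0.9717 to 0.0337 when 1 library was left out), WRKY2 Rsa10032651 (0.19 after centring and 0.19 after quantile normalization), WRKY3 Rsa10015373 (0.24 and 0.22) and WRKY51 Rsa10016152 (−1.28 to 0.0005 with 1 library left out). The causes were not tested. Replicate numbers are shared by the ages, but nothing says that they pair the samples: deviations from the group means correlated at 0.272, 0.142 and 0.0814 for same-numbered libraries, each library correlating best with its own number, and a replicate block gave 17 rises and 18 falls (1733 and 6875 among all 21435 genes tested). Leaving out the members described as WRKY16 or WRKY19 left 13 rises and 19 falls. The other counts stayed within 1.5 times. FPKM without read counts limits what can be said of the 38 members below the filter.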
